A study of Homo sapiens with 6 samples.

Results

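The genes described here are 10 genes by which a cell senses, takes in, stores and releases iron. FBXL5, IREB2 and ACO1 serve the sensing of iron, TFRC and SLC11A2 bring iron into the cell, and SLC40A1 lets it out. FTH1, FTL and NCOA4 serve its storage and release, and HMOX1 frees it from heme. They were found by symbol among the 60675 gene identifiers of the count table, and 9 of the 10 passed the filter on low counts that left 16353 genes for testing. The list was chosen by role around FBXL5 after the log2 fold change of FBXL5 in this same comparison was known, so the values of these 10 genes are given as a description and no p-value is printed for them. Whether a member passed the threshold of the fit over all genes is stated only to be set beside the share of all genes that did.

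Bulk RNA-seq compared 3 wells of A2058 cells given 100 µM vitamin C for 48 h with 3 wells of the same cells without vitamin C. A2058 is an established melanoma line of metastatic origin, so all 6 wells share 1 genetic background, and every library was made from total RNA depleted of ribosomal RNA. The medium was renewed each day before treatment, according to the study's methods. The comparison asks how vitamin C treatment shifts the transcripts of these cells, here those of iron handling. Vitamin C is a reducing agent that can keep iron in the ferrous form, the form that the iron-dependent dioxygenases it serves as a cofactor need.

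Cells match iron uptake to iron storage largely after transcription. When iron is scarce, the iron regulatory proteins encoded by ACO1 (IRP1) and IREB2 (IRP2) bind a short RNA hairpin, the iron-responsive element, which blocks translation when it lies in the 5′ UTR of an mRNA and protects the mRNA from decay when it lies in the 3′ UTR. When iron and oxygen are plentiful, IRP1 holds an iron-sulphur cluster and works as an aconitase, while FBXL5, the substrate-binding subunit of an SCF ubiquitin ligase that itself binds iron and oxygen, marks IRP2 for degradation. RNA-seq measures the mRNA only, so the amount of FBXL5, IRP2, ferritin or transferrin receptor protein was not measured in these data.

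The hairpins through which the iron regulatory proteins reach other members are shown where a search for their letters found them. Spliced UTRs of protein-coding transcripts (GENCODE 29, build GRCh38) were searched on the sense strand for CAGTGN, with a C 6 bases before it and 5 pairs (A-T, G-C or G-T) between the 5 bases on each side. The letters were found in the 5′ UTR of FTH1, FTL and SLC40A1, with 1 match each, and in the 3′ UTR of TFRC, with 4 matches. The capitals mark the 6 bases of the loop.
FTH1, 5′ UTR, chr11:61967575-61967604, minus strand: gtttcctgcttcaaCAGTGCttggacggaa
FTL, 5′ UTR, chr19:48965333-48965362, plus strand: gtctcttgcttcaaCAGTGTttggacggaa
SLC40A1, 5′ UTR, chr2:189580662-189580691, minus strand: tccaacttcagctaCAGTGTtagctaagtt
TFRC, 3′ UTR, chr3:196050980-196051009, minus strand: ataattatcggaagCAGTGCcttccataat
TFRC, 3′ UTR, chr3:196050576-196050605, minus strand: cacattatcgggagCAGTGTcttccataat
TFRC, 3′ UTR, chr3:196050511-196050540, minus strand: gtctgtatcggagaCAGTGAtctccatatg
TFRC, 3′ UTR, chr3:196050464-196050493, minus strand: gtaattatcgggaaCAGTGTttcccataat

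The same letters stood in the 5′ UTR of 36 of 18798 genes (0.192%) and in the 3′ UTR of 132 of 19077 genes (0.692%). UTRs differ in length, with a median longest 3′ UTR of 1109 bases over these genes, against 2658 bases for TFRC. The search found no match in the annotated UTRs of FBXL5, IREB2, ACO1, SLC11A2, NCOA4 or HMOX1, which says only that these letters are not there. An element whose loop or stem departs from these letters is missed by this search. A gene without a match, SLC11A2 included, can therefore still carry an element and be a target of the iron regulatory proteins. EPAS1, PFN2, CDC42BPA and HAO1, in which an element has been described, had no match either. A match is a description of the sequence and not a measured binding site.

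Levels are given as CPM, a gene's counts divided by its library's scaled total and put on the usual common scale, computed from the deposited read counts with edgeR's TMM scaling, and differences as the log2 fold change (vitamin C wells over control wells) with its standard error (SE). Library totals ran from 20944956 to 32549362 counts in vitamin C wells and from 16248869 to 41884588 in control wells. Vitamin C replicate 3 stood apart from the other vitamin C wells, since its counts differed from theirs by a chi-square of 11.0 and 10.7 for each degree of freedom, where the other pairs within a group gave 2.75 to 6.65. All 9 melanoma and melanocyte markers examined were at 1 CPM or more, with a summed level of 2821 to 2931 CPM in vitamin C wells and 3002 to 3118 CPM in control wells. The sum joins markers that moved both ways, since 4 of the 9 were called, PMEL, TYR and PAX3 higher and DCT lower. PMEL had 138 to 164 CPM in vitamin C wells and 84.6 to 96.7 CPM in control wells, and DCT had 1185 to 1282 CPM in vitamin C wells and 1464 to 1547 CPM in control wells. Of 8 erythroid markers, of a lineage that uses much iron, 3 had counts in vitamin C wells and 4 in control wells, and they summed to 1.03 to 1.25 CPM in vitamin C wells and 1.04 to 1.79 CPM in control wells, with HBA1, HBA2, HBG1 and ALAS2 at 0. Of 8 macrophage markers 7 had counts in each group, with a sum of 7.78 to 7.92 CPM in vitamin C wells and 9.34 to 10.9 CPM in control wells, mostly LYZ, the 1 of 3 tested that was called (lower), and with MARCO at 0. The 5 fibroblast markers, of which 4 were at 1 CPM or more, summed to 12.6 to 15.2 CPM in vitamin C wells and 9.32 to 10.7 CPM in control wells, and 2 of 4 tested were called higher (COL3A1 and PDGFRB, the last with 193 counts in vitamin C wells and 68 in control wells). The part of these markers in the results was not tested. Since RNA was taken from whole wells, a change in the RNA of every cell and a change in the mixture of cells cannot be told apart.

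FBXL5 stood well above its control level in every vitamin C well. The gene lies on chromosome 4 (chr4:15604539-15681679, minus strand). It had 173, 170.2 and 175 CPM in vitamin C wells, against 103, 97.7 and 106 CPM in control wells. The lowest vitamin C well lay far above the highest control well, and the groups did not overlap. The level of FBXL5 averaged 173 ± 2.63 CPM in vitamin C wells and 102 ± 4.02 CPM in control wells (SD, n = 3 each), a log2 fold change of 0.76 (SE 0.047), or 1.70-fold. These levels rested on 13698 counts in vitamin C wells and 8615 in control wells. By size, its change ranked 444 among the genes higher in vitamin C wells, so the change was moderate and the wells of each group lay close together. Its log2 fold change stayed between 0.73 and 0.79 under every alternative tried.

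The mRNAs of the 2 iron regulatory proteins moved little beside that of FBXL5. IREB2, which encodes the IRP2 that FBXL5 targets (chr15:78437431-78501456, plus strand), had 115, 113 and 103 CPM in vitamin C wells, against 126, 128 and 118 CPM in control wells. Every vitamin C well lay below every control well, although by a small margin. The averages were 111 ± 6.54 CPM in vitamin C wells and 124 ± 5.57 CPM in control wells, a log2 fold change of -0.16 (SE 0.055) that did not pass the genome-wide threshold. It passed with upper quartile scaling (log2 fold change -0.18) and with the replicate number as a block (-0.16), and was -0.11 without vitamin C replicate 3. ACO1, which encodes IRP1 and cytosolic aconitase (chr9:32384603-32454769, plus strand), had 50.8, 52.5 and 53.8 CPM in vitamin C wells, against 51.5, 51.9 and 46.3 CPM in control wells. The wells of the groups overlapped for ACO1, with a log2 fold change of 0.06 (SE 0.061).

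**Figure D1:**
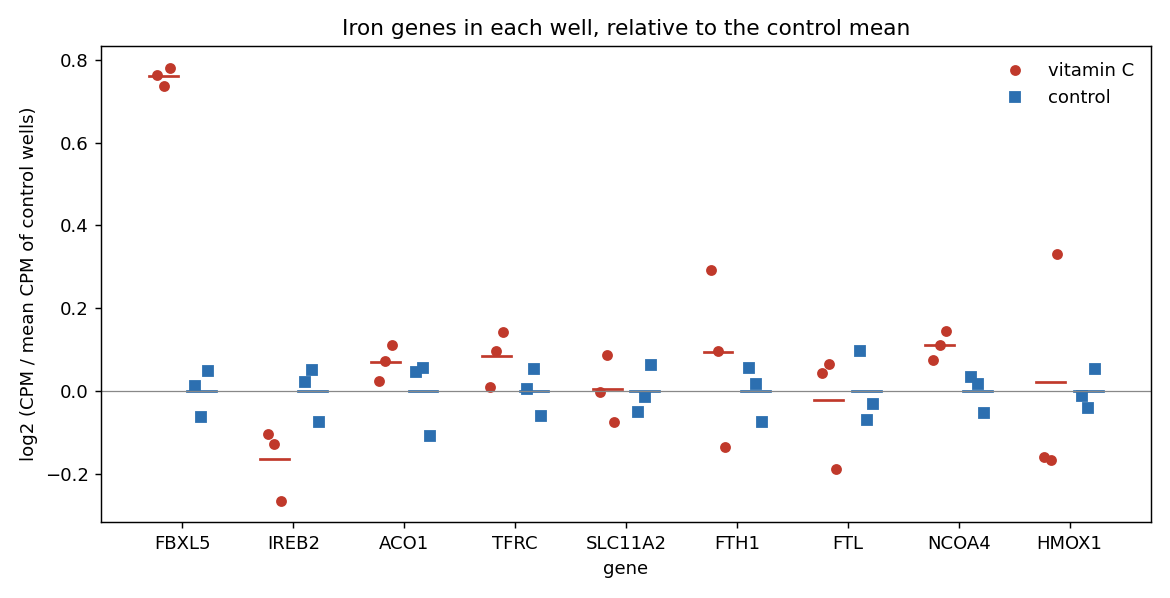
Level of 9 iron genes in each well, as the log2 ratio of its CPM to the mean CPM of the 3 control wells. Red circles are vitamin C wells, blue squares are control wells and horizontal lines show group means, with SLC40A1 left out because it had 8 counts in vitamin C wells and 6 in control wells. The 3 vitamin C wells of FBXL5 sit far above every other point, while IREB2 lies slightly below and NCOA4 slightly above their control wells.

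The genes of uptake and export gave no separation of the groups. TFRC, the transferrin receptor through which most cells take up iron and the carrier of the 3′ hairpins shown above (chr3:196027183-196082189, minus strand), had 595, 631 and 651 CPM in vitamin C wells, against 592, 613 and 567 CPM in control wells. The lowest vitamin C well fell within the control range, and the log2 fold change was 0.08 (SE 0.047). SLC11A2, the transporter DMT1 that carries ferrous iron across membranes (chr12:50979401-51028566, minus strand), had 51.2, 54.5 and 48.7 CPM in vitamin C wells, against 49.5, 50.8 and 53.6 CPM in control wells. Its group means of 51.5 ± 2.87 CPM in vitamin C wells and 51.3 ± 2.08 CPM in control wells were almost equal, with a log2 fold change of 0.01 (SE 0.061).

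SLC40A1, which encodes ferroportin, the known cellular exporter of iron (chr2:189560579-189583758, minus strand), was barely detected. It had 5, 1 and 2 counts in vitamin C wells, against 4, 1 and 1 counts in control wells. This is the member that did not pass the filter on low counts, and 8 counts against 6 show no difference detectable at this depth.

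Storage genes were abundant and spread more between the vitamin C wells than between the control wells. FTH1, the ferritin heavy chain that oxidises iron for storage (chr11:61959718-61967660, minus strand), had 674, 588 and 501 CPM in vitamin C wells, against 572, 557 and 523 CPM in control wells. The vitamin C wells lay both above and below the whole control range. The averages were 588 ± 86.7 CPM in vitamin C wells and 551 ± 25.5 CPM in control wells, with a log2 fold change of 0.09 (SE 0.081). The value depended on single vitamin C wells, since the log2 fold change was 0.20 and past the genome-wide threshold without vitamin C replicate 3, and -0.02 without vitamin C replicate 1. FTL, the ferritin light chain (chr19:48965301-48966878, plus strand), had 423, 429 and 361 CPM in vitamin C wells, against 439, 391 and 402 CPM in control wells. Here too vitamin C replicate 3 was the lowest well, and the log2 fold change was -0.02 (SE 0.065), or 0.06 without that well.

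Ferritin counts carry limits of annotation. Ferritin pseudogenes can share reads with their parents: 21 of 25 FTH1 pseudogenes in the table had counts, at 5.72% to 6.58% of the FTH1 counts in vitamin C wells and 5.01% to 6.06% in control wells. For FTL, 11 of 16 pseudogenes had counts, at 0.651% to 1.03% of the parent in vitamin C wells and 0.563% to 0.743% in control wells. With these reads added, the log2 fold changes were 0.10 for FTH1 and -0.02 for FTL. The gene BEST1, on the opposite strand, covers 62.4% of the exon bases of FTH1, and the sources used here do not give the strand setting of the counting. BEST1 itself had 12.2, 11.9 and 11.5 CPM in vitamin C wells, against 7.76, 9.61 and 9.53 CPM in control wells, a level far under that of FTH1. BEST1 was called higher (log2 fold change 0.42, SE 0.10). Its low level does not show how many FTH1 reads the overlap affected.

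NCOA4, the receptor that delivers ferritin to lysosomes for release of its iron (chr10:46005088-46030714, minus strand), had 150.1, 154 and 158 CPM in vitamin C wells, against 146, 144 and 138 CPM in control wells. The lowest vitamin C well stood just above the highest control well. The averages were 154 ± 3.85 CPM in vitamin C wells and 143 ± 4.52 CPM in control wells, a log2 fold change of 0.11 (SE 0.046) that did not pass the genome-wide threshold.

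HMOX1, heme oxygenase 1, which opens heme and frees its iron and is widely used as a readout of oxidative stress (chr22:35380361-35394214, plus strand), was low. It had 3.37, 3.34 and 4.73 CPM in vitamin C wells, against 3.72, 3.65 and 3.90 CPM in control wells. Vitamin C replicate 3 was the highest of the 6 wells and the other vitamin C wells were the lowest, so the log2 fold change of 0.01 came with an SE of 0.16 and was -0.15 without that well.

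Across the 10 genes, 1 of the 9 tested was called higher (FBXL5) and 0 were called lower at an adjusted p under 0.05, by edgeR as by DESeq2 and limma-voom. At an unadjusted p under 0.05, 2 were higher and 1 was lower. Such p-values were common over the whole table. A gene at an unadjusted p of 0.044 by edgeR's quasi-likelihood test (MAFF) ranked 4003 among the 16353 genes. Over the whole table, 996 of 16353 genes were called higher (6.09%) and 833 lower (5.09%), together 1829 (11.2%). Wells of the groups did not overlap for 3 of the 9 members, FBXL5 and NCOA4 above and IREB2 below the control wells, while this held for 4996 of the 16353 genes (30.6%). The median log2 fold change was 0.06 over the 9 members and 0.04 without FBXL5, against -0.0037 over all genes tested. FBXL5 was known from this contrast before the list was made, so nothing is read from these shares.

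Per kilobase of annotated exon, which allows levels to be set between genes, the ferritins led in both groups. FTL averaged 460.5 ± 43.3 CPM per kb in vitamin C wells and 468 ± 28.7 in control wells, and FTH1 followed with 289.6 ± 42.7 in vitamin C wells and 271 ± 12.6 in control wells. TFRC came next, at 79.3 ± 3.63 CPM per kb in vitamin C wells and 74.9 ± 2.92 in control wells. The order of FBXL5 and NCOA4 then differed between the groups. In vitamin C wells FBXL5 averaged 37.8 ± 0.574 CPM per kb and NCOA4 37.8 ± 0.944, with overlapping wells. In control wells FBXL5 averaged 22.3 ± 0.880 CPM per kb and NCOA4 35.0 ± 1.11, and the wells did not overlap. In both groups IREB2, ACO1, SLC11A2, HMOX1 and SLC40A1 followed in that order, with no overlap between neighbours in either group. IREB2 averaged 10.2 CPM per kb in vitamin C wells and 11.5 in control wells, above ACO1 with 6.93 in vitamin C wells and 6.60 in control wells. HMOX1 averaged 1.58 CPM per kb in vitamin C wells and 1.56 in control wells. SLC40A1 came last, at 0.0248 CPM per kb in vitamin C wells and 0.0150 in control wells. Exon length was taken over all annotated transcripts of a gene, so a gene whose long forms are unused in these cells is understated. The level of FTH1 also carries the limit of its overlap with BEST1.

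**Figure D2:**
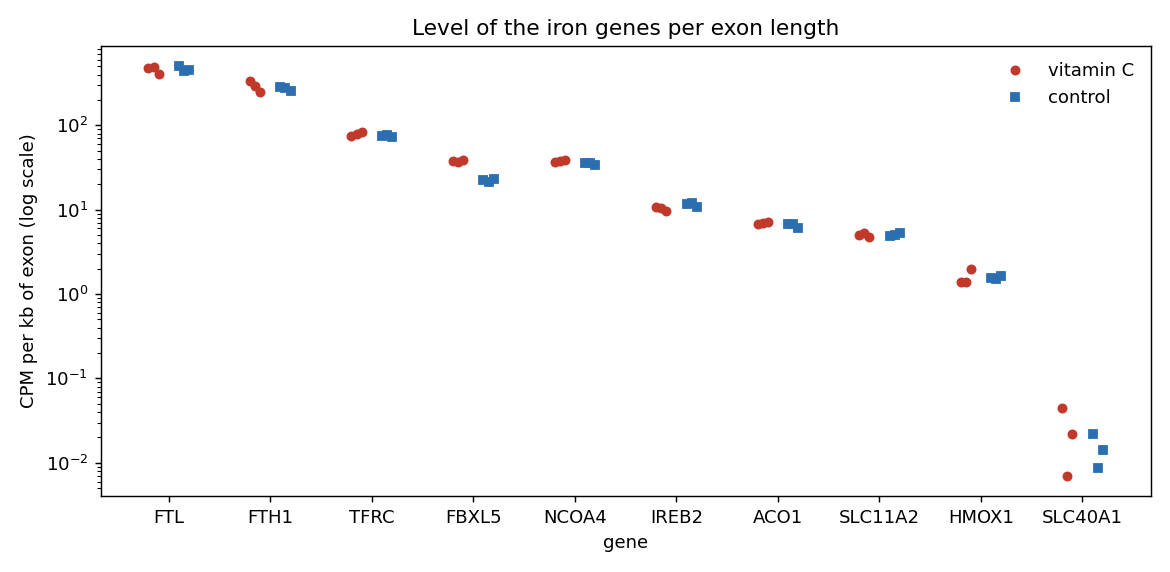
Level of the 10 iron genes in CPM per kilobase of exon on a log axis, ordered by the vitamin C mean, with 1 point per well (red circles vitamin C, blue squares control). The genes span from 460.5 CPM per kb for FTL to 0.0248 for SLC40A1 in vitamin C wells, and FBXL5 reaches the level of NCOA4 in vitamin C wells but lies below it in control wells.

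Ratios between genes within a well do not depend on the scaling between libraries. FBXL5 had more counts than IREB2 in each vitamin C well, with log2 ratios of 0.59, 0.59 and 0.77, against -0.29, -0.39 and -0.16 in control wells. This ratio of the ligase subunit to its target averaged 0.65 ± 0.10 in vitamin C wells and -0.28 ± 0.12 in control wells, a difference of 0.93. The log2 ratio was thus positive in all vitamin C wells and negative in all control wells. The list was made with the change of FBXL5 (log2 fold change 0.76) known, so this separation largely restates it and is no further result. These counts are not divided by gene length, so the sign alone does not say which mRNA had more molecules. Per kb of exon, FBXL5 stood above IREB2 in both groups. The means were 37.8 against 10.2 CPM per kb in vitamin C wells and 22.3 against 11.5 in control wells.

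The ratio of IREB2 to ACO1, the mRNAs of IRP2 and IRP1, did not overlap between the groups. It joins log2 fold changes of -0.16 for IREB2 and 0.06 for ACO1, neither of them called. Wells of single genes did not overlap for 30.6% of all genes tested, and the ratio was not tested, so nothing is read from its separation. The log2 ratio of IREB2 to ACO1 was 1.18, 1.11 and 0.94 in vitamin C wells, against 1.29, 1.31 and 1.35 in control wells, a difference of -0.24. The ratio of TFRC to FTH1, which iron-poor cells are known to raise through the hairpins on TFRC, gave log2 values of -0.18, 0.10 and 0.38 in vitamin C wells, against 0.05, 0.14 and 0.12 in control wells. The vitamin C wells spread to both sides of the control wells, and the group means differed by -0.0013. TFRC over FTL averaged 0.63 ± 0.19 in vitamin C wells and 0.52 ± 0.11 in control wells, and FTH1 over FTL averaged 0.53 ± 0.12 in vitamin C wells and 0.42 ± 0.075 in control wells, both with overlapping wells.

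**Figure D3:**
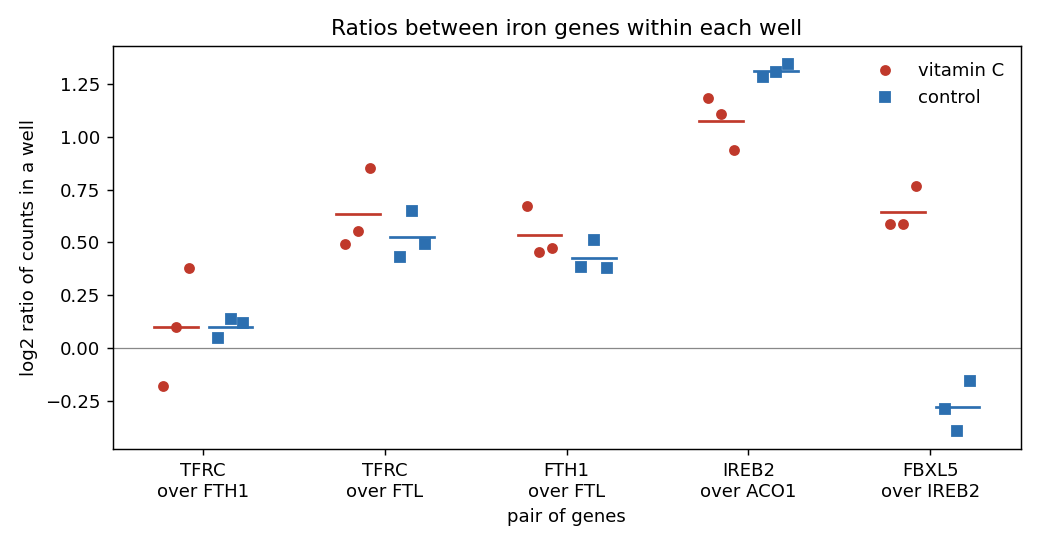
Log2 ratio of the counts of gene pairs within each well, with group means as lines (red circles vitamin C, blue squares control). FBXL5 over IREB2 lies between 0.59 and 0.77 in vitamin C wells and between -0.39 and -0.16 in control wells, while the ratios of TFRC to the ferritins overlap between the groups. The separation of FBXL5 over IREB2 largely restates the change of FBXL5, known before the list was made.

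Around these 10 genes, 105 further genes of iron biology were taken in 9 lists by role, and 90 of them were tested. Of these 90, 6 rose, 7 fell and 77 did not pass the threshold, so that 14.4% were called against 11.2% of all genes tested. These counts depended on single libraries. There were 8 rises and 7 falls without vitamin C replicate 3, but 3 rises and 5 falls without vitamin C replicate 2. Without control replicate 1 the counts were 4 rises and 3 falls, without control replicate 2 they were 4 and 4, and without control replicate 3 they were 3 and 4. Their median log2 fold change was 0.02, against -0.0037 over all genes. Adjusted p-values below are Benjamini-Hochberg values over all 16353 genes from edgeR's quasi-likelihood test.

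In the list on the FBXL5 ligase and the turnover of the sensors, 1 of 6 tested genes rose and 1 fell. Of all genes tested, 6.09% were called higher and 5.09% lower. CUL1, the cullin scaffold on which SCF ligases are built, had 161, 160.4 and 163 CPM in vitamin C wells, against 186, 185 and 182 CPM in control wells. CUL1 fell by 0.19 on the log2 scale (SE 0.042, edgeR adjusted p = 0.010). This call was lost without control replicate 1 (adjusted p = 0.052) or 2 (0.056). The gene that rose was HIF1A, the oxygen-regulated subunit of the hypoxia-inducible factor and not a part of the ligase. HIF1A had 2024, 1955 and 2113 CPM in vitamin C wells, against 1753, 1763 and 1802 CPM in control wells (log2 fold change 0.20, SE 0.041, edgeR adjusted p = 0.0081). The parts of the ligase other than CUL1 were close between the groups. SKP1, the adaptor that joins FBXL5 to the cullin, averaged 102 ± 0.936 CPM in vitamin C wells and 103 ± 2.04 CPM in control wells. RBX1, the RING subunit, averaged 19.3 ± 1.58 CPM in vitamin C wells and 18.6 ± 1.18 CPM in control wells. Both pairs of means differed by less than the spread between wells. NEDD8, which modifies and activates cullins, had a log2 fold change of 0.02 (SE 0.11). HERC2, a ligase reported to degrade FBXL5, had a log2 fold change of 0.04 (SE 0.047). None of SKP1, CUL1 and RBX1, the subunits with which FBXL5 forms its ligase, was called higher.

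In the uptake list, 3 of 13 tested genes fell, where 5.09% of all genes were called lower. They were a reductase, a carrier and a heme transporter. SLC46A1, a folate transporter that also carries heme, had 13.1, 14.3 and 13.4 CPM in vitamin C wells, against 18.7, 18.0 and 16.7 CPM in control wells (log2 fold change -0.40, SE 0.080, edgeR adjusted p = 0.0060). STEAP3, the endosomal reductase that turns ferric into ferrous iron after transferrin uptake, had 29.2, 29.1 and 24.2 CPM in vitamin C wells, against 35.9, 33.3 and 34.7 CPM in control wells. STEAP3 fell by 0.33 on the log2 scale (SE 0.078, edgeR adjusted p = 0.016). TF, the serum iron carrier transferrin, had 7.55, 10.03 and 10.7 CPM in vitamin C wells, against 12.8, 12.7 and 14.7 CPM in control wells. TF fell by 0.50 on the log2 scale (SE 0.12, edgeR adjusted p = 0.017). The call of STEAP3 was lost without control replicate 1 (adjusted p = 0.077) or 3 (0.062), and that of TF without control replicate 3 (0.076), while SLC46A1 kept its call under every alternative, also at an adjusted p of 0.01.

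In the list on export and the hepcidin axis, 2 of 5 tested genes fell, where 5.09% of all genes were called lower. BMP6, a ligand that drives hepcidin in the liver, was low here, with 0.978, 0.790 and 0.859 CPM in vitamin C wells, against 1.95, 1.53 and 2.60 CPM in control wells. BMP6 fell by 1.18 on the log2 scale (SE 0.26, edgeR adjusted p = 0.010), a call lost without vitamin C replicate 2 (0.055). NEO1, neogenin, which takes part in the hepcidin signal in hepatocytes and is also a guidance receptor, had 21.1, 22.1 and 22.7 CPM in vitamin C wells, against 27.3, 26.8 and 26.4 CPM in control wells. NEO1 fell by 0.29 on the log2 scale (SE 0.066, edgeR adjusted p = 0.013). Without control replicate 1 or 2 the adjusted p was 0.057 or 0.051. HAMP, which encodes hepcidin itself, had 4 counts over the vitamin C wells and 7 over the control wells and was not tested.

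Mitochondrial iron and iron-sulphur cluster genes gave 1 rise and 1 fall among 22 tested (9.09%), where 11.2% of all genes were called. At an unadjusted p under 0.05 by edgeR's test, 3 were higher and 1 was lower, the called genes included. SLC25A28, mitoferrin 2, which brings iron into mitochondria outside the erythroid lineage, had 7.08, 7.36 and 10.2 CPM in vitamin C wells, against 5.02, 3.91 and 4.08 CPM in control wells. All vitamin C wells lay above the control wells, with replicate 3 the highest. SLC25A28 rose 1.85-fold (log2 fold change 0.89, SE 0.16, edgeR adjusted p = 0.0027) and kept its call under every alternative, with a log2 fold change of 0.71 without that replicate. NUBPL, an assembly factor for the iron-sulphur clusters of respiratory complex I, averaged 18.5 ± 1.27 CPM in vitamin C wells and 22.1 ± 0.948 CPM in control wells, with a log2 fold change of -0.25 (SE 0.076) and an edgeR adjusted p of 0.048. That call sat on the threshold and was lost in every fit without 1 library except that without vitamin C replicate 3, with an adjusted p of up to 0.16, and under RLE scaling, library size scaling, no filter, DESeq2 and limma-voom, where it was 0.0503 to 0.088. No gene was called by edgeR, DESeq2 or limma-voom among the 6 tested chaperone and ferritinophagy genes or the 10 of cytosolic iron-sulphur assembly. The same held for the 17 of heme synthesis, transport and breakdown. By edgeR, 11.2% of all genes tested were called. At an unadjusted p under 0.05 there were 0, 0 and 4 genes in these lists. Their log2 fold changes ran from -0.13 to 0.08, from -0.11 to 0.14 and from -0.26 to 0.40 in these lists.

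Of the other mRNAs in which an iron-responsive element has been described, 4 of 5 tested rose, where 6.09% of all genes were called higher. EPAS1, which encodes the HIF-2α whose translation the 5′ element is known to restrain, had 5.17, 5.17 and 4.63 CPM in vitamin C wells, against 2.98, 2.57 and 2.54 CPM in control wells. EPAS1 rose 1.83-fold (log2 fold change 0.87, SE 0.14, edgeR adjusted p = 0.0016) and stayed called under every alternative. The other rises were smaller and in genes of the cytoskeleton and cell division. PFN2, an actin-binding profilin, had 103, 112 and 106 CPM in vitamin C wells, against 98.2, 89.9 and 87.6 CPM in control wells (log2 fold change 0.21, SE 0.056, edgeR adjusted p = 0.027). CDC42BPA, a kinase of the cytoskeleton, had 408, 389 and 369 CPM in vitamin C wells, against 334, 359.8 and 332 CPM in control wells (log2 fold change 0.18, SE 0.050, edgeR adjusted p = 0.031). CDC14A, a phosphatase, had 16.04, 15.02 and 15.4 CPM in vitamin C wells, against 12.4, 13.6 and 12.1 CPM in control wells (log2 fold change 0.28, SE 0.081, edgeR adjusted p = 0.041). The groups did not overlap for any of these 4 genes, as for 30.6% of all genes tested. This adds nothing to calls made from the same wells. HAO1, with 5 counts in vitamin C wells and 3 in control wells, was not tested.

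Apart from EPAS1, these calls were lost when single libraries were left out. PFN2 was not called without vitamin C replicate 2 (adjusted p = 0.12) or without control replicate 2 (0.12) or 3 (0.13). CDC42BPA was not called without vitamin C replicate 1 (0.094) or 2 (0.084) or without control replicate 1 (0.12) or 3 (0.14). CDC14A was called in 1 of the 6 fits without a library, that without vitamin C replicate 3, with an adjusted p of 0.058 to 0.14 in the others, and was not called by DESeq2 (0.12), without a filter (0.065) or with the replicate block (0.056). The list was small and chosen with results of these data known, so the share of 4 in 5 is a count and no test of the list. By the search described above, CDC14A held the letters in its 3′ UTR, while EPAS1, PFN2, CDC42BPA and HAO1 had no match.
CDC14A, 3′ UTR, chr1:100518581-100518610, plus strand: tatatttacatgtaCAGTGTtacattatat

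The transcription factors known to act on HMOX1 and the ferritin genes gave 0 called genes among 6 tested, by edgeR as by DESeq2 and limma-voom. By edgeR, 11.2% of all genes tested were called. At an unadjusted p under 0.05, 4 of the 6 were higher. Such p-values were common, since MAFF at 0.044 by edgeR's quasi-likelihood test ranked 4003 among the 16353 genes. Both counts are of a small list and no test of it. NFE2L2, which encodes the activator NRF2, averaged 99.6 ± 4.88 CPM in vitamin C wells and 103 ± 3.82 CPM in control wells, and KEAP1, its inhibitor, had a log2 fold change of -0.04 (SE 0.082). BACH1, the heme-binding repressor of HMOX1 and the ferritin genes, had 135, 132 and 127 CPM in vitamin C wells, against 123, 121 and 117 CPM in control wells (log2 fold change 0.12, SE 0.047, edgeR adjusted p = 0.11). The small MAF partners MAFG, MAFK and MAFF had log2 fold changes of 0.24, 0.24 and 0.18, with edgeR adjusted p-values of 0.053, 0.18 and 0.18. MAFG and MAFK lay above their control wells in every vitamin C well, as did BACH1, where the groups did not overlap for 30.6% of all genes tested. Without vitamin C replicate 3, BACH1 passed the threshold (adjusted p = 0.034), and without vitamin C replicate 1 so did MAFG (0.034). MAFG also passed with library size scaling (0.045), without a filter (0.043) and with the replicate block (0.048).

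**Figure D4:**
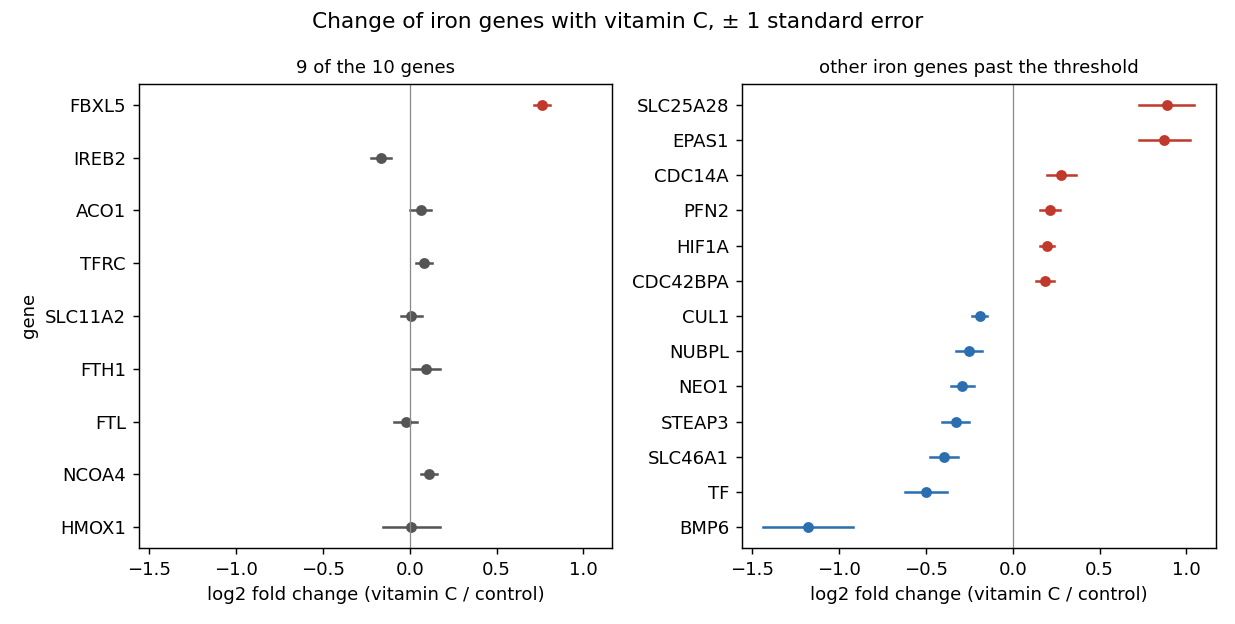
Log2 fold change (vitamin C wells over control wells), with bars of 1 standard error, for 9 of the 10 genes (left) and for the 13 other iron genes past the threshold (right). Red marks called higher genes, blue called lower genes and grey genes not called. Among the 9, FBXL5 at 0.76 stands alone at the right, and SLC25A28 and EPAS1 at 0.89 and 0.87 are the other iron genes of similar size, while BMP6 at -1.18 is the farthest to the left.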

How the data were processed

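The authors deposited raw, unscaled read counts for each gene. They made them from paired-end reads with STAR and HTSeq (GENCODE v19 in the paper, build hg38 in the submitters' processing notes, which also name CASAVA 1.4 and Trim Galore). The sources used here do not give the strand setting of the counting. The labels give 100 µM for the treated wells, while their protocol text gives 50 µM. The series table and the 6 single-sample tables hold the same values. Of 60675 identifiers, 57055 were found in GENCODE 29 (GRCh38), used for symbols, exon lengths and sequences, and 56558 in the table of gene names. All 10 members and 105 of 105 listed genes were found.

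Counts were filtered (filterByExpr), scaled by TMM and tested by edgeR 4.0.16's quasi-likelihood test (R 4.3.3) with 3 wells a group and no covariate, with Benjamini-Hochberg adjustment over 16353 genes and calls at an adjusted p under 0.05. The step was tested on simulated data. Groups came from the labels. The wells are cultures of 1 line, so a p-value speaks of well-to-well spread only. Wells of a group differed beyond sampling noise (lowest chi-square for each degree of freedom 2.75).

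Alternatives were RLE, upper quartile and library size scaling, no filter, at least 10 counts in every library, DESeq2 1.42.0, limma-voom (limma 3.58.1), a replicate block, leaving out each library in turn, an adjusted p under 0.01, and pseudogene reads added to the ferritin genes. The text names all members, up to 6 called genes a list with the smallest p, and every gene of the lists on the ligase, on other iron-responsive elements and on transcription factors. The result of 1 gene that this rule takes is not reported here. Members and lists were chosen with earlier results of these data known.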

Additional observations from a re-analysis of the deposited data

How the results depend on the processing

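At an adjusted p under 0.01, 795 genes were called (473 higher, 322 lower), and of the other iron genes 4 (3 higher, 1 lower). With 1 library left out, the calls ran from 964 to 2095 over all genes (549 to 1184 higher, 411 to 911 lower), from 7 to 15 among the other iron genes (3 to 8 higher, 3 to 7 lower) and from 1 to 2 among the 9 tested members (1 to 2 higher), where the added gene was FTH1 without vitamin C replicate 3. The count over all genes was 2095 without that library, against 964, 977 and 1092 without control replicates 3, 2 and 1 and 1136 without vitamin C replicate 2. Upper quartile scaling and the replicate block each called 2 members (1 higher, 1 lower), the addition being IREB2. DESeq2 called 1533 genes and limma-voom 1851. No value changed sign past the threshold. For the named genes, 447 values kept their side of the threshold, 42 lost a call and 8 gained one.

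Deviations of wells from their group means had correlations across genes of 0.12, -0.02 and 0.09 between wells with the same replicate number 1, 2 and 3. Wells with different numbers gave -0.18 to 0.11. These values do not settle whether the numbers mark pairs. The replicate block gave 1913 calls, against 1829 without it. Depth limited SLC40A1, which had 1 to 5 counts a well.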

Other observations

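Some of the listed iron genes that failed the filter on low counts are given as counts only. They were chosen after their values were seen. LCN2, lipocalin 2, which binds iron-loaded siderophores, had 3, 10 and 3 counts in vitamin C wells, against 0 in each control well. CD163, the macrophage receptor for hemoglobin bound to haptoglobin, had 4, 6 and 11 counts in vitamin C wells, against 2, 1 and 0 in control wells. HEPH, the copper oxidase hephaestin that acts with ferroportin, had 2, 2 and 3 counts in vitamin C wells, against 0, 1 and 0 in control wells. FTMT, mitochondrial ferritin, had 1 count in vitamin C wells and 0 in control wells, and ALAS2, the erythroid enzyme of heme synthesis, had 0 counts in every library. Other listed genes that failed the filter leaned the same way. STEAP4 had 19 counts in vitamin C wells and 9 in control wells, HEPHL1 14 and 6, PCBP3 12 and 5, and BOLA2 13 and 5. HAMP went the other way, with 4 and 7. Without the filter the median log2 fold change was 0.078 over 44814 genes, against -0.0037 over the genes tested. Higher low counts in vitamin C wells were thus not particular to LCN2, CD163 or HEPH. These counts were not tested.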
